A study of Macaca mulatta with 252 samples.

Results

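TLL1 and TSHZ2 are the 2 genes described here, of 14133 genes named by the arrays. They were chosen from their measured values: both stood among the genes with the highest layer 4 signal, relative to layers 2, 3, 5 and 6, in the 6 neocortical areas that have a single layer 4 array per animal (DLPFC, S1, A1, V2, MT and TE). That contrast, and the level of layer 4 against the sublayers of V1, are therefore given below as a description and with no test. Each gene is represented by the probe set that carries its symbol alone and has the highest mean.

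The neocortex is built of layers that differ in their neurons, and layer 4 is the main target of axons from the thalamus. In primary visual cortex (V1) of primates layer 4 is split into the sublayers 4A, 4B, 4Ca and 4Cb, with the magnocellular cells of the lateral geniculate nucleus (LGN) projecting mainly to 4Ca and the parvocellular cells mainly to 4Cb. TLL1 encodes tolloid-like 1, a secreted metalloproteinase of the BMP1 family that cleaves procollagens and chordin, an antagonist of bone morphogenetic proteins (BMPs). TSHZ2 encodes a teashirt zinc finger homeobox transcription factor, and its mouse counterpart is used as a marker of near-projecting neurons of layer 5.

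The study hybridised RNA from laser-captured tissue of adult rhesus macaques, male and female and with no treatment given in the labels, to the Affymetrix rhesus macaque genome array, to chart gene expression over the neocortex, hippocampus and LGN. The experimental arrays form 57 groups: 50 layers of 10 neocortical areas (dorsolateral prefrontal, DLPFC; orbitofrontal, OFC; anterior cingulate, ACG; primary motor, M1; primary somatosensory, S1; primary auditory, A1; temporal, TE; middle temporal, MT; V1 and V2), 4 hippocampal fields (CA1, CA2, CA3 and dentate gyrus, DG) and 3 LGN divisions. ACG, OFC and M1 have no layer 4 array. Each group holds 1 array from each of 4 animals, or of 3 in A1 (layers 4 and 5) and in M1 (layer 2); in all 3 males (A, B and C) and 3 females (D, E and F) were used, and 27 control arrays accompany them. The labels state no genetic change or age beyond adult for any group. Dissected tissue of a layer holds neurons, glia and vessels together, so fewer cells of a type and less RNA per cell cannot be told apart in any value below.

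All values are log2 intensities, so a difference of 1 is a doubling of signal, and their precision is limited by the number of arrays. The median of an array over all probe sets lay between 4.72 and 5.00, and arrays correlated with the rest of their group at 0.983 in the median and 0.941 at the lowest. The TLL1 probe set is dim, with a mean of 4.53 over the experimental arrays (2.75 to 7.55), under the median of 4.76 of all probe sets. The TSHZ2 probe set has a mean of 6.98 (3.38 to 10.7). No detection call came with the values, and the dimmest TLL1 probe set had a mean of 3.22, close to the lowest group means of the one described here, so TLL1 is given as log2 differences and not as folds. A second probe set of each gene followed the first over the 57 groups (r = 0.934 for TLL1 and 0.960 for TSHZ2, as a description), while the remaining probe set of each did so weakly (r = 0.0922 and 0.436).

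A few arrays did not carry the layer markers of their label. The S1 layer 4 array of female D had CUX2, a homeobox factor of upper layers, at 9.59 and FEZF2, a factor of deep-layer projection neurons, at 5.37, while the layer 5 array of the same animal had the S1 maximum of RORB (7.13), a nuclear receptor marking layer 4. The S1 layer 4 array of male C had FEZF2 at 9.42 and CUX2 at 5.17, near the 8.93 and 4.76 of its layer 5. Its RORB was 4.53, against 3.57 in layer 5 and 4.57 in layer 3 of that animal. The A1 layer 3 array of male A had FEZF2 at 9.38, the highest of 20 layer 3 arrays in the areas other than S1 that have layer 4 (median 5.28), and its TLL1 (6.48) and TSHZ2 (8.50) were the highest of A1 layer 3. Comparisons of TLL1 and TSHZ2 that use S1 are therefore given with and without it, apart from the comparison of sexes, where it enters the mean of each animal. The A1 array enters only the mean of its group and the comparison of sexes, since that animal has no complete set of A1 layers. In DLPFC of female D, RORB was higher in layer 5 (5.80) than in layer 4 (5.32). That set was kept among the sets outside S1.

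Layer 4 gave the highest TLL1 and TSHZ2 signal in nearly every area outside V1 where it was sampled. TLL1 in layer 4 of MT was 7.25 in male A, 7.38 in male C, 7.46 in female E and 7.51 in female F, the highest group mean of all 57 (7.40 ± 0.11, SD, n = 4). In layer 4 of TE it was 7.55, 7.02, 6.68 and 6.59 in male A, male C, female D and female E (6.96 ± 0.44, SD, n = 4). In A1 it was 7.11, 6.72 and 6.84 in male C, female D and female E (6.89 ± 0.20, SD, n = 3). The arrays of these areas overlapped for TE with MT and with A1, while every MT array exceeded every A1 array.

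DLPFC layer 4 had TLL1 at 6.21, 7.10, 6.74 and 6.99 in male B, male C, female D and female E (6.76 ± 0.40, SD, n = 4). In V2 layer 4 the values were 6.67 in male A, 6.28 in male C, 7.43 in female D and 6.19 in female E (6.64 ± 0.57, SD, n = 4). S1 layer 4 was split: male A (7.08) and female E (6.13) were high, and female D (4.28) and male C (4.12), the arrays whose markers went against their label, were low (5.40 ± 1.44, SD, n = 4). The highest group mean after layer 4 of MT, TE, A1, DLPFC and V2 was that of the dentate gyrus (6.59). In layers 2 and 3 of areas other than V1 the group means of TLL1 lay between 3.29 and 4.64, with no overlap with the 5 high layer 4 means.

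TSHZ2 was also highest in layer 4 in these areas, by group mean, with the exception of S1. In TE layer 4 it was 9.43, 9.0, 9.30 and 9.19 in male A, male C, female D and female E (9.23 ± 0.18, SD, n = 4). In DLPFC layer 4 it was 9.69, 9.41, 8.64 and 9.06 in male B, male C, female D and female E (9.20 ± 0.45, SD, n = 4). In V2 layer 4 male A had 8.92, male C 9.22, female D 8.73 and female E 8.98 (8.96 ± 0.20, SD, n = 4). The ranges of these areas overlapped with each other.

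A1 layer 4 had TSHZ2 at 8.95, 8.69 and 9.06 in male C, female D and female E (8.90 ± 0.19, SD, n = 3). In MT layer 4 it was 9.11, 8.09, 8.59 and 9.23 in male A, male C, female E and female F (8.76 ± 0.52, SD, n = 4). In S1 layer 4 it was 9.23, 7.16, 5.84 and 8.16 in male A, male C, female D and female E (7.6 ± 1.44, SD, n = 4), with the same animals low as for TLL1.

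Set against the mean of layers 2, 3, 5 and 6 of the same animal and area, layer 4 was higher in TLL1 by 3.63 ± 0.28 (SD, n = 4) in MT, 2.72 ± 0.67 (n = 4) in V2, 2.57 ± 0.51 (n = 4) in DLPFC, 2.44 ± 0.22 (n = 4) in TE and 1.92 ± 0.25 (n = 3) in A1. For TSHZ2 the same differences were 3.06 ± 0.12 in TE, 2.31 ± 0.32 in V2, 2.09 ± 0.25 in A1, 2.02 ± 0.53 in MT and 1.95 ± 0.53 in DLPFC. In S1 they spanned zero, from -0.43 to 2.98 for TLL1 and from -0.76 to 2.19 for TSHZ2. These values chose the genes and support nothing further.

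**Figure D1:**
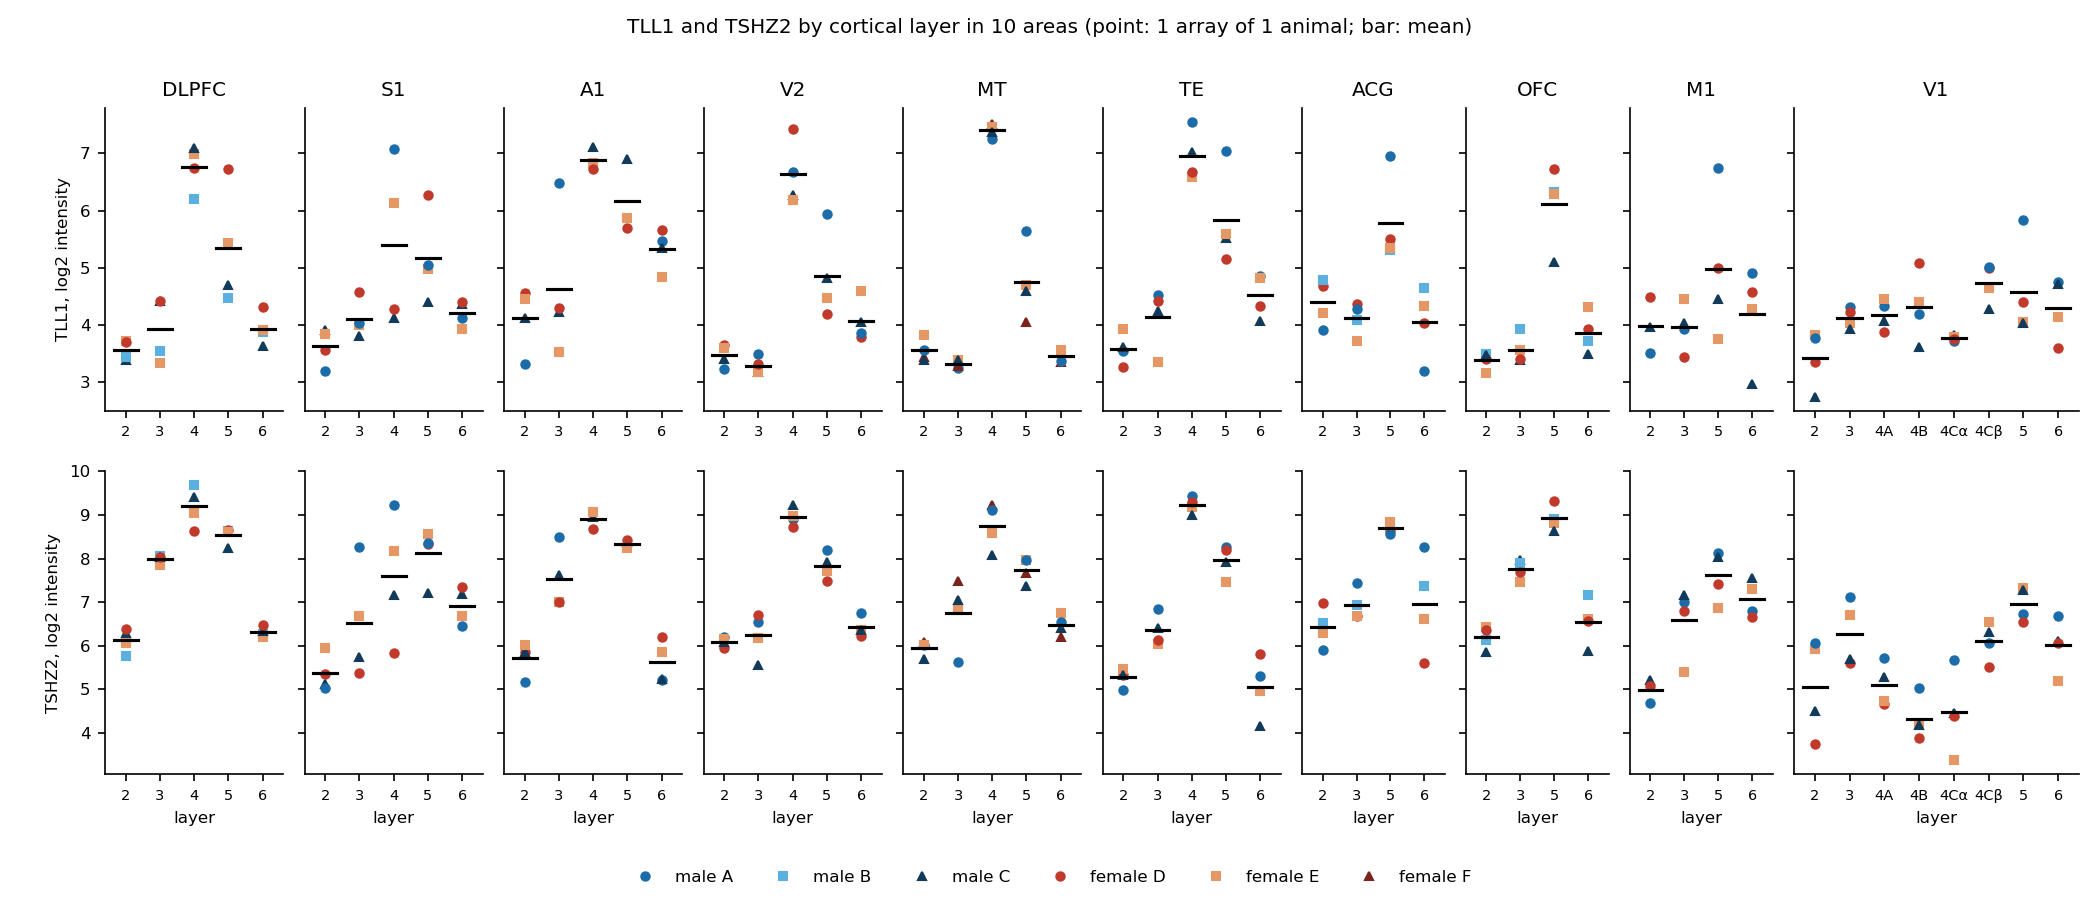
Log2 intensity of TLL1 (upper row) and TSHZ2 (lower row) on the vertical axes by cortical layer on the horizontal axes, in 10 areas. Each point is the array of 1 animal and each bar a group mean. The means peak at layer 4 in the areas outside V1 that have it, S1 excepted for TSHZ2, and at layer 5 in ACG, OFC and M1. The means of the V1 sublayers lie under the layer 4 means of the other areas.

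The counts below, by animal and area, use the layers that chose the genes, so they are a description and add no support. Among 23 sets of 5 layers from 1 animal and area, TLL1 was highest in layer 4 in 21 and TSHZ2 in 19. The 2 sets where TLL1 was highest elsewhere, in layer 5, were those of S1 whose layer 4 array had markers against its label. In male C TLL1 was low throughout, at 4.40 in layer 5, 4.37 in layer 6 and 4.12 in layer 4. TSHZ2 was highest in layer 5 in both, and also in S1 of female E (8.57, against 8.16 in layer 4). There TLL1 (6.13) and RORB (6.35) were highest in layer 4. Outside S1, TLL1 peaked in layer 4 in 19 of 19 sets and TSHZ2 in 18 of 19. The exception was DLPFC of female D, with TSHZ2 at 8.64 in layer 4 and 8.66 in layer 5. TLL1 was nearly equal in these layers (6.745 in layer 4 and 6.736 in layer 5). RORB was also higher in layer 5 (5.80) than in layer 4 (5.32) of this set. CUX2 in its layer 4 was 4.88, against 7.24 or more in the other DLPFC animals, while FEZF2 was lower in layer 4 than in layer 5. Whether these arrays match their labels was not tested. Each gene was highest in the same layer as RORB in 21 of the 23 sets. In S1 of female D the array labelled layer 5 held the highest TLL1 (6.28), TSHZ2 (8.33) and RORB (7.13) of the animal.

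**Figure D2:**
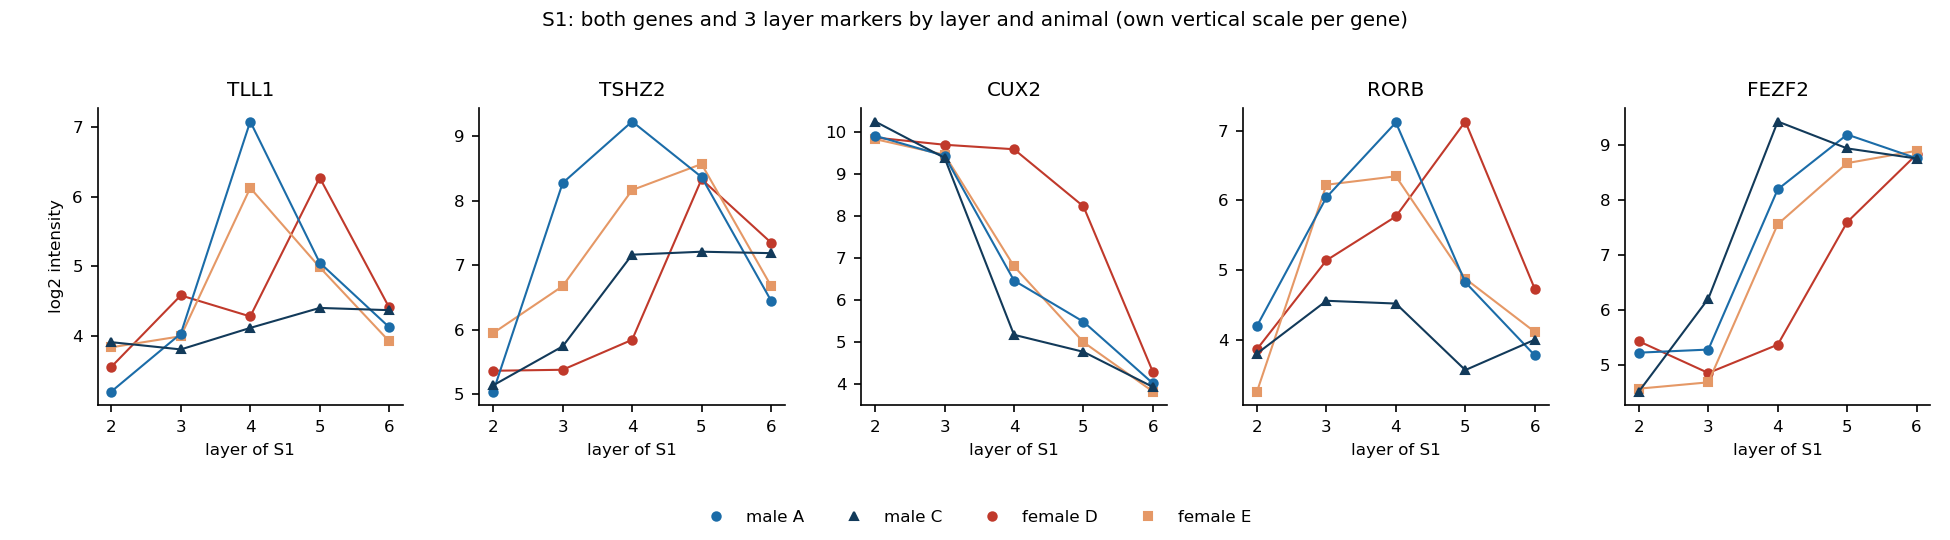
Log2 intensity (vertical axes, own scale per gene) of TLL1, TSHZ2, CUX2, RORB and FEZF2 by layer of S1, with a line for each of 4 animals. Female D has CUX2 at 9.59 in layer 4 and its highest RORB, TLL1 and TSHZ2 in layer 5, and male C has FEZF2 at 9.42 in layer 4 with TLL1 at 4.12.

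In layer 4 of V1 both genes were far lower than in layer 4 elsewhere. TLL1 in 4Ca was 3.73 in male A, 3.83 in male C, 3.75 in female D and 3.79 in female E (3.77 ± 0.04, SD, n = 4), rank 43 of the 57 groups. In 4Cb it was 5.01, 4.28, 4.99 and 4.65 in the same order (4.73 ± 0.35). 4A had 4.19 ± 0.26 and 4B 4.32 ± 0.60 (SD, n = 4 each). All 4 sublayers overlapped with layers 5 (4.58 ± 0.85) and 6 (4.30 ± 0.54) of V1, with the exception of 4Ca, whose arrays all lay under those of layer 5.

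TSHZ2 in 4B was 5.04 in male A, 4.19 in male C, 3.89 in female D and 4.19 in female E (4.33 ± 0.49, SD, n = 4), the lowest mean of all 57 groups. 4Ca was next to last, with 5.67, 4.46, 4.39 and 3.38 (4.47 ± 0.94). 4Cb had 6.06, 6.33, 5.51 and 6.55 (6.11 ± 0.45) and 4A had a mean of 5.10 ± 0.49. The layers of V1 outside layer 4 had means of 5.07 ± 1.12 in layer 2, 6.28 ± 0.74 in layer 3, 6.97 ± 0.39 in layer 5 and 6.02 ± 0.61 in layer 6 (SD, n = 4 each).

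Within the 4 animals, the mean of 4Ca and 4Cb differed from the mean of layer 4 of the other areas by -2.42 ± 0.32 on the log2 scale for TLL1 (SD, n = 4) and by -3.43 ± 0.30 for TSHZ2 (lower 10.8-fold), in 4 of 4 animals each. With S1 left out of that mean the differences were -2.71 ± 0.18 and -3.68 ± 0.33. Against layer 4 of the adjoining area V2 the differences were -2.39 ± 0.47 for TLL1 and -3.67 ± 0.43 for TSHZ2 (lower 12.7-fold). The 16 arrays of V1 sublayers ranged from 3.62 to 5.08 for TLL1 (median 4.23), and the 23 layer 4 arrays of other areas from 4.12 to 7.55 (median 6.84). For TSHZ2 the ranges were 3.38 to 6.55 (median 4.89) and 5.84 to 9.69 (median 9.0). Without S1 all 19 layer 4 arrays lay above every V1 sublayer array, by at least 1.11 for TLL1 and 1.55 for TSHZ2.

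The median of RORB was 6.18 in the 8 arrays of 4Ca and 4Cb and 6.28 in the 19 layer 4 arrays outside S1. Other markers moved with the difference. The median of CUX2 was 9.79 in 4Ca and 4Cb against 6.81 in layer 4 elsewhere, that of FEZF2 5.40 against 8.22, that of NEUROD6, a factor of excitatory neurons, 6.21 against 8.88, and that of TCF7L2, a factor of thalamic relay neurons, 10.0 against 11. The part of these other cells in the V1 levels of TLL1 and TSHZ2 was not tested. A1 and TE, whose layer 4 means are given above, share with V1 a narrow spread of the hybridisation control probes, while DLPFC, V2 and MT have a wide spread. Another set of control probes, the poly-A controls, had a mean of 9.08 in V1 and 8.93 in V2. It was 7.77 to 8.50 in the other areas, hippocampus and LGN. The part of this level in the V1 values was not tested. The labels name 3 amplification batches without saying which array was in which. Whether V1 shared a batch with other areas is not known, so area and batch cannot be told apart here.

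**Figure D3:**
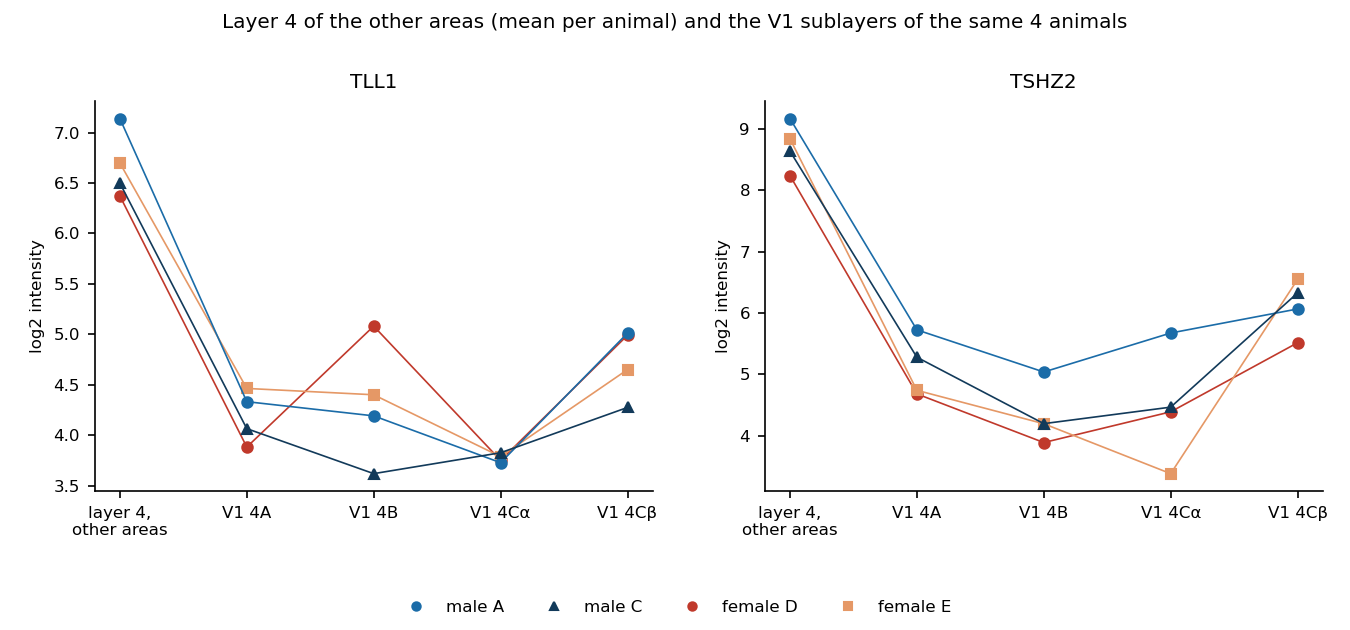
Log2 intensity (vertical axes) of TLL1 (left) and TSHZ2 (right) in layer 4 of the other areas, as the mean of each animal, and in the V1 sublayers 4A, 4B, 4Ca and 4Cb of the same 4 animals, joined by lines. Every animal's sublayers lie under its layer 4 mean, and 4Ca lies under 4Cb in 4 of 4 animals for both genes.

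Within V1 the question was whether the layers differ among themselves, in 32 arrays that the choice of the genes did not use. A gene is called here when limma's moderated test, fitted over all genes with the animal as a block, gives a Benjamini-Hochberg adjusted p under 0.05 and the log2 change, or the range of the fitted means, is 1 or more. Genes are tested when their mean exceeds the median of all probe sets. TLL1 fell under that filter in most comparisons, so its values and adjusted p come from a fit over all 14133 genes. TSHZ2 differed among the V1 layers, with a range of 2.64 between layers 5 and 4B (adjusted p = 2.21e-05), where 14.7% of the genes tested were called. TLL1 spanned 1.31 between 4Cb and layer 2 (adjusted p = 0.0337, 10.9% of all genes called), and its call was lost without any 1 of the 4 animals (adjusted p of 0.0912 to 0.146).

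The second TSHZ2 probe set had a range of 0.91. The sublayers 4Ca and 4Cb were not called higher than the rest of V1 in either gene. For TLL1, 4Ca and 4Cb together exceeded layers 2, 3, 5 and 6 by 0.14 ± 0.18 (SE, 4 animals, limma adjusted p = 0.740). TSHZ2 was lower there by a log2 change of -0.79 ± 0.23 (SE, limma adjusted p = 0.0180), under the size needed for a call (3.08% called). RORB was higher by 1.32 ± 0.18 in the same contrast, as the 1 called gene of 9 tested layer 4 neuron genes, whose median was 0.05 beside -0.03 over all genes tested.

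The sublayer with a called difference was 4B, which receives little direct input from the LGN and sends axons to MT and V2. TSHZ2 was 3.38-fold lower in 4B than in layers 2, 3, 5 and 6 (-1.76 ± 0.30, SE, limma adjusted p = 0.000152), in 4 of 4 animals, and 3.62% of the genes tested were called. TLL1 differed there by 0.21 ± 0.24 (SE). In 4A TSHZ2 was at -0.98 ± 0.30 (limma adjusted p = 0.0843) and TLL1 at 0.08 ± 0.24, with 0.900% called. The second TSHZ2 probe set gave -0.18 in 4B, so that call rests on the brighter probe set. Markers of other cells moved with 4B too. MBP and UGT8, the 2 oligodendrocyte genes on the array of 5 listed, were higher there by 1.1 and 1.55, and their summed level was 12.6 to 13 in 4B, 12.3 to 12.4 in layer 5. NEUROD6 and SLC17A7, the vesicular glutamate transporter of cortical excitatory neurons, were lower by -1.15 and -1.13, and FEZF2 was lower by -1.30. Their part in the TSHZ2 value was not tested.

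Among the sublayers themselves, TSHZ2 was called between 4Ca and 4Cb. It was 3.11-fold lower in 4Ca than in 4Cb (-1.64 ± 0.38, SE, limma adjusted p = 0.0189), in 4 of 4 animals, where 1.36% of the genes tested were called. The call was lost without male C (-1.56), female D (-1.81) or female E (-1.13) and without the animal block (limma adjusted p = 0.0647), and the second probe set gave -0.05. TLL1 was at -0.96 ± 0.30 (SE, limma adjusted p = 0.0982), also lower in 4Ca in 4 of 4 animals. Both layer 5 markers were lower in 4Ca in the same contrast, FEZF2 by -3.15 and ETV1 by -2.65, and so was NEUROD6 (-2.96). The summed level of FEZF2 and ETV1 was 5.55 to 7.26 in 4Ca, 8.08 to 9.63 in 4Cb and 9.62 to 10.8 in layer 5 of V1. The part of deep-layer neurons in the 4Cb values was not tested.

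The remaining V1 contrasts gave no call for either gene. Against 4A, 4Ca and 4Cb together differed by 0.07 ± 0.26 for TLL1 and 0.19 ± 0.33 for TSHZ2 (SE, 1.43% of tested genes called). Against 4B they differed by -0.07 ± 0.26 for TLL1 and 0.97 ± 0.33 for TSHZ2 (limma adjusted p = 0.140 for TSHZ2, 0.519% called). Layer 5 against layer 6 gave 0.28 ± 0.30 for TLL1 and 0.95 ± 0.38 for TSHZ2 (limma adjusted p = 0.245 for TSHZ2, 1.18% called).

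ACG, OFC and M1 show where the genes are found in areas with no layer 4 array, which the choice of the genes did not use. Both genes peaked in layer 5 in 11 of 11 sets of layers from 1 animal and area. TLL1 in layer 5 of OFC was 6.32, 5.11, 6.73 and 6.29 in male B, male C, female D and female E (6.11 ± 0.70, SD, n = 4), against 3.39 to 3.93 in layer 3. In ACG it was 6.96, 5.32, 5.50 and 5.35 in male A, male B, female D and female E (5.78 ± 0.79), against 3.72 to 4.38 in layer 3. Neither pair of groups overlapped. Layer 5 of M1 was more spread, from 3.76 to 6.74 (4.99 ± 1.27).

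TSHZ2 in layer 5 of OFC was 8.91, 8.64, 9.32 and 8.81 in male B, male C, female D and female E (8.92 ± 0.29). These values lay within the range of layer 4 arrays elsewhere, 5.84 to 9.69, or 8.09 to 9.69 without S1. In ACG layer 5 it lay between 8.56 and 8.84 (8.70 ± 0.12) and in M1 layer 5 between 6.88 and 8.12 (7.61 ± 0.58). Layer 3 had 7.75 ± 0.23 in OFC, 6.94 ± 0.36 in ACG and 6.59 ± 0.81 in M1 (SD, n = 4 each).

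Over these areas the layers differed in both genes, by a range of 1.96 for TLL1 (limma adjusted p = 1.15e-06, 4.67% of all genes called) and 2.63 for TSHZ2 (limma adjusted p = 2.05e-07, 5.89% of genes above the filter called). Layer 5 exceeded layer 3 by 1.96 ± 0.21 in TLL1 (SE, 5 animals, limma adjusted p = 4.68e-06), a contrast in which 1.02% of all genes were called. For TSHZ2 the difference was 1.29 ± 0.21 (SE, 2.45-fold, limma adjusted p = 0.000416, 1.30% of genes above the filter called). Both were higher in layer 5 in 11 of 11 sets. The second TLL1 probe set gave 0.85, under the size for a call. Layers 3 and 5 together exceeded layers 2 and 6 by 1.51 ± 0.15 in TSHZ2, a call shared by 0.600% of the genes tested, and by 0.88 ± 0.15 in TLL1, under the size for a call. In the layer 5 against layer 3 contrast both layer 5 markers were higher (FEZF2 by 3.75, ETV1 by 1.98), as was SYT6, a layer 6 gene, by 1.64. CUX2 (-4.51) was lower, as were CD53, 1 of 4 listed microglial genes (-2.35), and ALDH1L1, 1 of 4 listed astrocyte genes (-1.07). The summed microglial level had a median of 9.28 in layer 3 and 8.81 in layer 5. That of the astrocyte genes was 12.77 and 12.72. The part of neurons and glia marked by these genes in the TLL1 and TSHZ2 differences was not tested.

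In the areas with layer 4 the layers on its deep and upper side were unequal as well. These arrays, unlike those of V1, ACG, OFC and M1, entered the contrast that chose the genes. Layers 2, 3, 5 and 6 had equal weight in it, so the choice did not rank them against each other. TLL1 passed the filter here only with the layer 4 arrays (a mean of 4.30 without them, against a filter of 4.76), so that its values come again from the fit over all genes. Layer 5 exceeded layer 3 by 1.62 ± 0.18 in TLL1 (SE, 4 animals, limma adjusted p = 1.95e-06, 1.27% of all genes called) and by 1.34 ± 0.13 in TSHZ2 (limma adjusted p = 4.25e-07, 1.58% of genes above the filter called). Without S1 the differences were 1.76 and 1.31, and the second probe sets gave 0.97 and 0.95. FEZF2 (3.77), ETV1 (2.30), SYT6 (1.74), NEUROD6 (2.38) and the oligodendrocyte gene UGT8 (1.04) were higher in layer 5 in this contrast too. CUX2 (-4.15), CD53 (-2.35) and VIP, a peptide of inhibitory neurons (-1.68), were lower. UGT8, CD53 and VIP are each 1 gene of a longer marker list, whose other members are not given here. The part of the cells marked by these genes in the difference was not tested. A1 layer 5 held the highest TLL1 mean of layer 5 (6.16 ± 0.65, n = 3) and MT layer 5 the lowest outside V1 (4.75 ± 0.66, n = 4). Layers 3 and 5 exceeded layers 2 and 6 by 1.45 ± 0.09 in TSHZ2, where 0.583% of genes were called, and by 0.70 ± 0.13 in TLL1, not a call by size (0.432% of all genes called). Without S1 they were 1.48 and 0.69. THSD7A, a further layer 4 neuron gene, was lower in the last contrast (-1.03 ± 0.10) and RORB was higher (1.07 ± 0.13), the 2 called of 9 tested layer 4 neuron genes. Of 3 tested near-projecting layer 5 neuron genes, 1, NXPH2, was higher in layer 5 than in layer 3 (1.36 ± 0.09).

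Outside layer 4, the mean of layers 2, 3, 5 and 6 differed among the 10 areas by 1.17 in TLL1, from MT (3.81) to A1 (4.97) (limma adjusted p = 0.000295, 7.17% of all genes called). In TSHZ2 it differed by 1.30, from V1 (6.13) to OFC (7.44) (limma adjusted p = 7.07e-07, 9.19% of genes above the filter called). Without S1 the ranges were 1.21 and 1.30. Within the 4 areas of the wide control spread the ranges were 0.42 and 0.70, neither a call, and within the 6 areas of the narrow spread 0.95 and 1.1. Glial markers also differed among the areas (ranges of 1.94 for MBP and 2.33 for UGT8), as did NEUROD6 (2.47). V1 was lower than the mean of the other 9 areas in TSHZ2 by a log2 change of -0.77 ± 0.12 (SE, 6 animals, limma adjusted p = 6.56e-06), and -0.65 against the areas that share its control spread, under the size for a call in both. Of the 6 animals 4 have V1 arrays. TLL1 differed by -0.23 ± 0.13 (SE). Without S1 these were -0.78 for TSHZ2 and -0.25 for TLL1. In that contrast 1.19% of the genes tested were called. The layers of DLPFC, S1, A1, V2, MT and TE used here entered the contrast that chose the genes, as its lower side. They are also part of the neocortex without layer 4 that is set against hippocampus and LGN below.

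The other teashirt genes were higher in V1. TSHZ1 exceeded the other 9 areas by 1.05 ± 0.11 and TSHZ3 by 1.26 ± 0.12 (SE, limma adjusted p = 1.1e-08 and 1.53e-09), the 2 called of 7 tested genes of the teashirt family and its corepressors. There 1.19% of all genes tested were called. The median of the list was 0.17, beside -0.06 over all genes tested. Between layers of V1 TSHZ3 was lower in 4B than in layers 2, 3, 5 and 6 (-1.25 ± 0.14) and lower in 4Ca than in 4Cb (-1.30 ± 0.17), each time the 1 called gene of the 7, with list medians of -0.24 and -0.11 beside -0.09 and -0.15 over all genes tested. In these contrasts 3.62% and 1.36% of all genes tested were called. CTBP2, a corepressor, and TSHZ1 also differed among the V1 layers (ranges of 1.26 and 1.29), as did TSHZ3 (1.76), 3 of the 7 in all. Of all genes tested there 14.7% were called.

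In the hippocampus TLL1 was highest in 1 field. The dentate gyrus had 7.19 in male A, 6.82 in male C, 7.21 in female D and 5.14 in female E (6.59 ± 0.98, SD, n = 4), the 6th highest of the 57 group means. CA1 had the lowest mean of all groups (3.27 ± 0.12), and CA2 (4.44 ± 0.44) and CA3 (3.85 ± 0.39) lay between them. Every dentate array exceeded every array of the CA fields. The fields differed by 3.32 (limma adjusted p = 8.28e-07), where 15.0% of all genes were called. PROX1, a factor of dentate granule cells, had medians of 10.2 in the dentate arrays and 6.52 in the CA arrays. The summed oligodendrocyte level was 8.38 to 9.24 in the dentate gyrus, 9.07 to 10.3 in CA1 and 11 to 11.9 in CA2. That of 5 inhibitory neuron genes on the array (6 listed) was 12.2 to 12.6 in the dentate gyrus and 10.2 to 10.9 in CA1, and its part in the TLL1 value was not tested.

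TSHZ2 was nearly even over the fields, from 5.74 ± 0.20 in the dentate gyrus to 6.37 ± 0.16 in CA1 (SD, n = 4 each). The range of 0.63 had an adjusted p of 0.0100 by limma but was under the size for a call (19.2% of genes above the filter called). TSHZ1 and TSHZ3 were called there, with ranges of 2.78 and 3.06, as was the corepressor HDAC1 (1.5), 3 of 7 with a list median of 0.77 beside 0.50 over all genes tested. Against the neocortex without layer 4, the hippocampus differed by 0.24 ± 0.15 in TLL1 and -0.75 ± 0.09 in TSHZ2 (SE, 4 animals), neither called, with 5.83% of the genes tested called (0.23 and -0.75 without S1). TSHZ1 (-1.12 ± 0.12) and TSHZ3 (-1.81 ± 0.07) were called lower there.

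The LGN held the highest TSHZ2 signal of the study. The parvocellular division had 10.3 to 10.7 (10.50 ± 0.19, SD, n = 4), the koniocellular 10.2 to 10.7 (10.47 ± 0.21) and the magnocellular 10.48 in male A, 10.13 in male C, 9.64 in female D and 10.13 in female E (10.09 ± 0.34). These were the first 3 of the 57 group means. TSHZ2 was 12.4-fold higher in the LGN than in the neocortex without layer 4 (3.63 ± 0.09, SE, 4 animals, limma adjusted p = 2.75e-11), and 10.7% of the genes tested were called. Against the areas of the wide control spread, to which the LGN also belongs, the difference was 3.42, without S1 it was 3.63, and the second probe set gave 3.12. TCF7L2 was higher in the LGN (2.71), while SLC17A7 (-3.23) and NEUROD6 (-3.35) were lower. MBP and UGT8 were higher by 1.05 and 2.09, with a summed oligodendrocyte level of 12.5 to 13.3 in the LGN and 8.23 to 13.5 in the neocortex without layer 4. The part of glia in the TSHZ2 value was not tested.

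TLL1 was highest in the magnocellular division, where TSHZ2 was lowest. It was 6.85 in male A, 5.29 in male C, 4.71 in female D and 4.10 in female E (5.24 ± 1.18), against 3.28 ± 0.14 in the parvocellular and 3.42 ± 0.18 in the koniocellular (SD, n = 4 each). Every magnocellular array exceeded every array of the other divisions. The range of 1.96 was called (limma adjusted p = 0.0196), as for 0.304% of all genes. That call was lost without male C (1.90), without female E (2.33) and without the animal block (limma adjusted p = 0.119), and the second TLL1 probe set had a range of 0.63. TSHZ2 differed by 0.41 among the divisions (limma adjusted p = 0.0880, 0.399% of genes above the filter called). As a whole the LGN differed from the neocortex by -0.32 ± 0.15 in TLL1 (SE, limma adjusted p = 0.0823), and by -0.33 without S1.

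**Figure D4:**
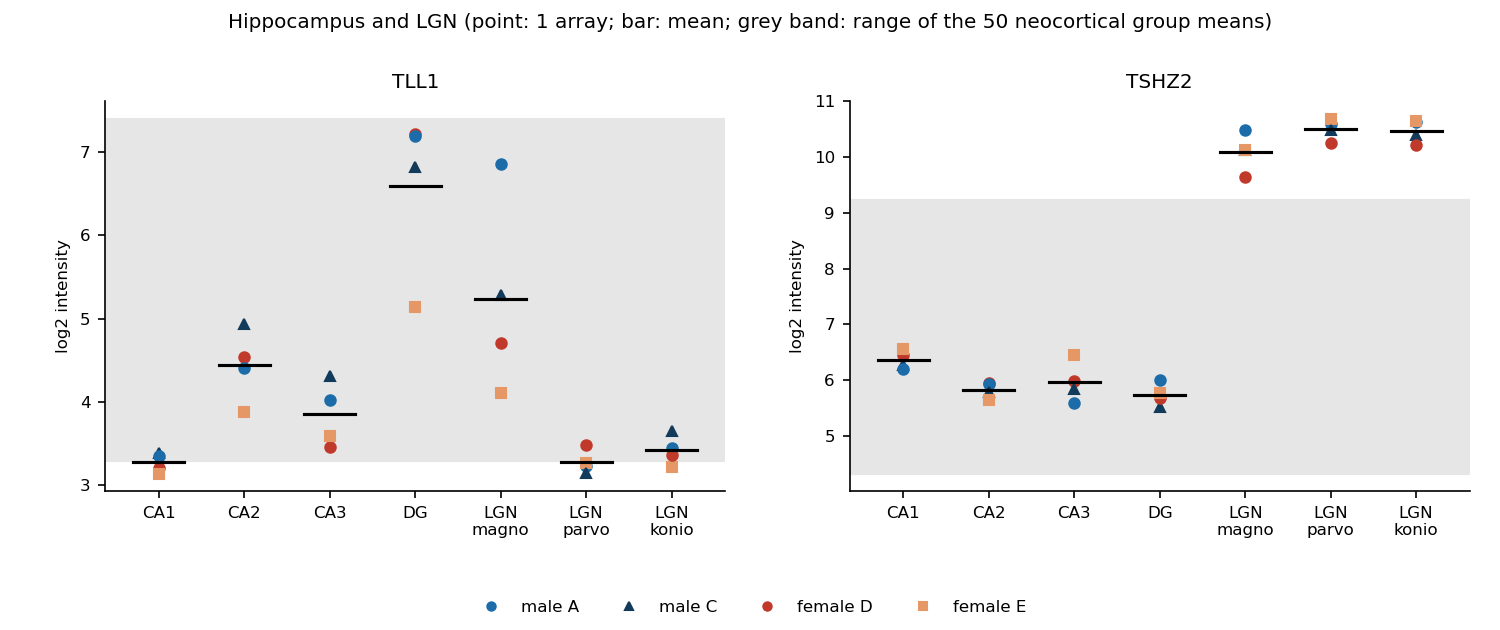
Log2 intensity of TLL1 and of TSHZ2 (vertical axes) in the 4 hippocampal fields and 3 LGN divisions, with points for animals, bars for group means and a grey band for the range of the 50 neocortical group means. TLL1 is high in the dentate gyrus (mean 6.59) and spread in the magnocellular division (4.10 to 6.85), and every TSHZ2 value of the LGN lies above the band.

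Neither gene was called between the sexes. Males minus females, over neocortical arrays relative to their group, gave 0.06 ± 0.12 for TLL1 and 0.10 ± 0.12 for TSHZ2 (SE, 3 against 3 animals, limma adjusted p = 0.949 and 0.901). Of 10295 genes tested, 0% were called and 0 passed the adjusted p by limma, and 739 had an unadjusted p under 0.05. With a trended, robust prior limma gave 46 genes past the adjusted p, of which 1 was called, and 911 at the unadjusted p.

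Ordered by mean, neighbouring groups rarely differed beyond their spread. For TLL1 the group means ran from 7.40 in MT layer 4 to 3.27 in CA1, and of 56 neighbouring pairs 1 had a gap above the larger SD of the pair (MT over TE layer 4, 0.44). For TSHZ2 they ran from 10.50 in the parvocellular LGN to 4.33 in V1 4B, with 3 such gaps: koniocellular over magnocellular LGN (0.38), magnocellular LGN over TE layer 4 (0.87) and layer 5 of DLPFC over that of A1 (0.19). On the control arrays, the whole-brain RNA pool had TLL1 at 5.66 ± 0.22 and TSHZ2 at 6.88 ± 0.21 (SD, n = 15). The tissue controls are repeat arrays labelled with male C, so that their SDs are not a spread between animals. The 9 CA3 control arrays had TLL1 at 4.93 ± 0.37 and TSHZ2 at 7.62 ± 0.17, both above the CA3 tissue group (3.85 ± 0.39 and 5.97 ± 0.36, n = 4), with no overlap between the arrays in either gene. The 3 MT control arrays had TLL1 at 4.83 ± 0.31 and TSHZ2 at 8.13 ± 0.13, beside means of 4.45 and 6.93 over layers 2 to 6 of MT in male C. The cause of these gaps was not tested.

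Pearson's r between the group means of TLL1 and TSHZ2 was 0.751 over the 50 neocortical groups, 0.790 over the 42 outside V1, 0.552 over the 8 layers of V1 and 0.489 over all 57. These are descriptions over groups that share animals and an amplification protocol. Both genes were chosen for high signal in the same layer, and groups of that layer are among the 57, the 50 and the 42. A high r over those sets is therefore partly built in by the choice, as is the rank of each gene for the other below. The 8 layers of V1 did not enter the choice. Over the neocortical groups the genes most like TLL1, among 9634 compared, were CXXC4 (r = 0.803), TOX (0.780), DPY19L1 (0.759), TSHZ2 (0.751) and RSPO3 (0.748). Those most like TSHZ2 were OVOL2 (0.80), FAM241B (0.797), OPN3 (0.796), MGLL (0.776) and BEND5 (0.775), with TLL1 in rank 7. Over all 57 groups CXXC4 (0.707), TBC1D8 (0.666), ANO4 (0.655), ODAD1 (0.644) and MYF6 (0.624) were most like TLL1, and CDR2 (0.746), RAB4A (0.746), OPN3 (0.742), FAM241B (0.737) and PARVG (0.730) most like TSHZ2.

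**Figure D5:**
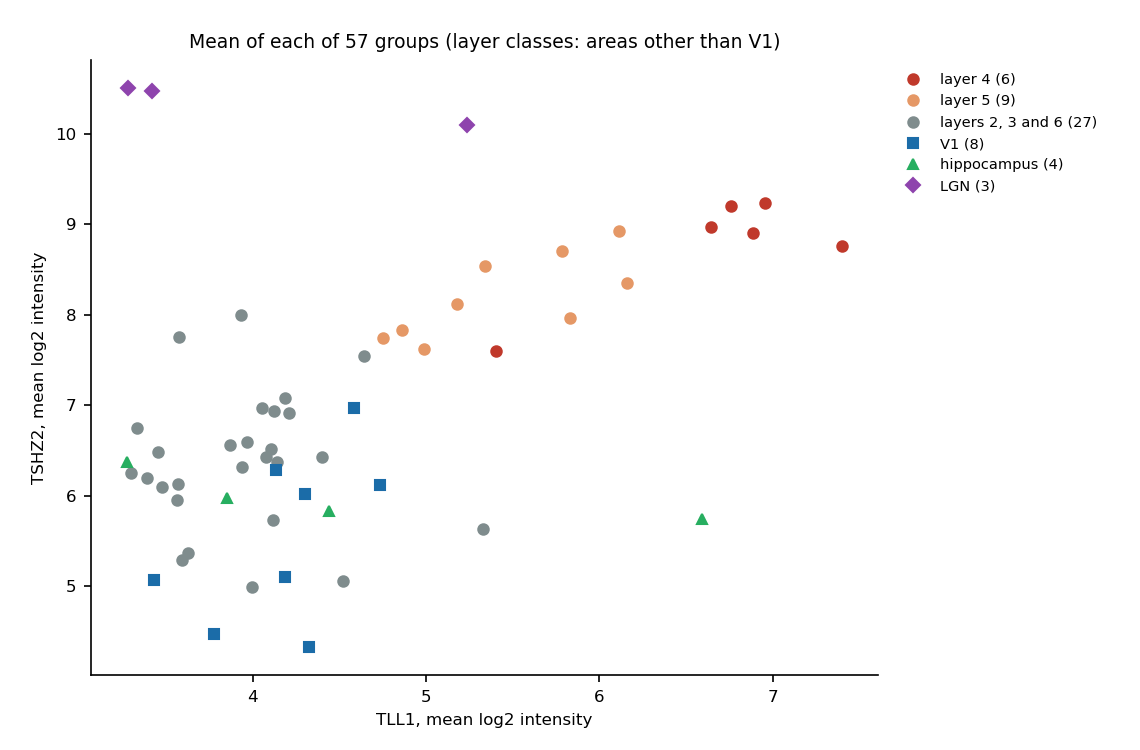
Mean log2 intensity of TLL1 (horizontal axis) and TSHZ2 (vertical axis) in each of the 57 groups, coloured by layer class or structure. Layer 4 outside V1 and S1 lies at the upper right, and the V1 layers lie under it on both axes. The dentate gyrus is high in TLL1 alone and the parvocellular and koniocellular LGN are high in TSHZ2 alone.

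Of 4 listed tolloid proteinases and partners, 2 were tested among the V1 layers. BMP1, the founding tolloid proteinase, and PCOLCE, which enhances procollagen cleavage, differed by ranges of 0.58 and 0.55 among the V1 layers, neither called, with a list median of 0.56 beside 0.67 over all genes tested. PCOLCE2, a related enhancer, differed among the hippocampal fields (range 2.33), the 1 called of 3 tested tolloid proteinases and partners there. Of all genes tested among the fields 19.2% were called. Of 5 tested tolloid substrates (15 listed), CHRD, the BMP antagonist chordin, was the 1 called among the V1 layers (1.35), among the hippocampal fields (1.37) and in the LGN, where it was lower (-1.65 ± 0.06, SE). In these comparisons 14.7%, 19.2% and 10.7% of all genes tested were called. The medians of that list were 0.65, 0.35 and -0.14, beside 0.67, 0.50 and a value that rounds to zero over all genes tested.

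Of 14 tested genes of the BMP pathway (24 listed), 6 differed among the V1 layers, among them the target genes ID3 (2.75) and ID4 (2.38), the receptor ACVR1 (1.92) and the ligand BMP2 (1.84), where 14.7% of all genes tested were called. The median range of the list was 1.17, beside 0.67 over all genes tested. In 4Ca and 4Cb the ligand BMP4 was lower than in layers 2, 3, 5 and 6 (-1.08 ± 0.12), the 1 called of 14. There 3.08% of all genes tested were called. Among the hippocampal fields 5 of 11 were called, led by SMAD5, a signal transducer (2.20), and SMAD7, an inhibitor (1.74), where 19.2% of all genes tested were called, with a list median of 0.99 beside 0.50. Of 5 tested zinc finger homeobox genes (7 listed), ZFHX3 (2.94 ± 0.08) and ZFHX4 (1.47 ± 0.07) were higher in the LGN (list median 0.28 beside a median of all genes that rounds to zero). In that comparison 10.7% of all genes tested were called. Of 3 tested near-projecting layer 5 neuron genes (7 listed), 1, NXPH2, was lower in the LGN (-2.01 ± 0.08), in the hippocampus (-1.85 ± 0.08) and in 4Ca and 4Cb (-1.63 ± 0.15). The shares of all genes tested that were called were 10.7%, 5.83% and 3.08%. Among the V1 layers 6 of 9 tested layer 4 neuron genes (12 listed) were called, where 14.7% of all genes tested were called, with a list median of 1.52 and THSD7A at 4.05. In the same comparison 1 of 5 zinc finger homeobox genes (ZEB2, 1.0, also the list median) and 1 of 3 near-projecting layer 5 neuron genes (NXPH2, 2.77, list median 0.93) were called, beside 0.67 over all genes tested.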

How the data were processed

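The arrays hold RNA of laser-captured tissue, amplified in 2 cycles from 5 ng of total RNA. The authors deposited intensities on a log10 scale. Per the file headers, they ran RMA within each amplification batch and then normalized each probe set on whole-brain control samples shared by the batches, and RMA is also named in the submitters' processing notes. Here the log10 values were multiplied to log2, which leaves their order unchanged. Of 52865 probe sets, 24969 carry 1 gene symbol, 361 several and 27535 none in GEO's platform annotation, and each of 14133 genes was represented by its single-symbol probe set with the highest mean. The members and lists were chosen with earlier results of these data known.

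Groups come from the labels. Comparisons were fitted with limma 3.58.1 in R 4.3.3 across all genes whose mean exceeded the median of all probe sets, with the animal as a fixed block (none between the sexes) and Benjamini-Hochberg adjustment; the fits were tested on simulated data. Layers of several areas were centred within each animal and area and averaged per animal, so that an animal counts once. The planned filter left out TLL1 from most comparisons, and the fit without the filter was then chosen after seeing the data. The planned comparisons of layer 4 among areas were not run as tests, because they use the values that chose the genes. Genes named besides the 2 members are those called in fixed lists of pathway, family and layer genes, cell markers, and the 5 genes most alike by Pearson's r of group means. TLL2, NOG, SMAD1, BMPR1A, BMPR2 and other listed genes without a single-symbol probe set were not analysed here.

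The labels number animals across areas and layers, and arrays of 1 animal deviated together (median r of 0.174 over 5367 pairs of arrays of the same animal, against -0.0493 over 19500 pairs of different animals), so the animal was kept as a block. Areas were split by the spread of the hybridisation control probes, narrow in A1, ACG, M1, S1, TE and V1 and wide in DLPFC, MT, OFC, V2, hippocampus and LGN, as a stand-in for batches that the labels do not assign. Alternatives were the other probe sets of each gene, no filter, quantile normalization of the arrays, a trended and robust prior, no animal block, each control set alone, each animal left out and, added after seeing the data, no S1 and neocortex from the wide control set. Differences within a tissue section and between animals are both in the spread, and no label says that any experimental array is a technical repeat. No detection call came with the values, so no gene is described as absent.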

Additional observations from a re-analysis of the deposited data

Results flagged for a closer look

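In groups of 4 arrays and the 9 CA3 control arrays, 3 of 110 gene and group combinations had an array far from the others relative to the range of its group, where chance gives about 1 in 20. TLL1 in layer 5 of ACG was 6.96 in male A against 5.32 to 5.50 in the other animals. TSHZ2 in layer 3 of DLPFC was 7.86 in female E against 8.04 to 8.06, and in layer 5 of DLPFC it was 8.25 in male C against 8.61 to 8.66. The DLPFC gaps are small beside the differences between layers.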

How the results depend on the processing

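Leaving out 1 animal at a time kept 164 values in direction and on their side of the threshold, while 9 lost a call and 5 changed sign. The ranges of the others were 1.20 to 1.47 for TLL1 among the V1 layers, -0.0484 to 0.21 for TLL1 in 4A, -0.11 to 0.44 for TLL1 in 4B, -0.0739 to 0.17 and -0.24 to 0.14 for TLL1 in 4Ca and 4Cb against 4A and 4B, and -2.05 to -1.13 for TSHZ2 in 4Ca against 4Cb. They were 1.4 to 2.33 for TLL1 among the LGN divisions and -0.10 to 0.15 for TLL1 between the sexes.

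The animal pairs the arrays, and without this replicate block TLL1 had an adjusted p of 0.0643 among the V1 layers (1.31) and 0.119 among the LGN divisions (1.96) and TSHZ2 in 4Ca against 4Cb 0.0647 (-1.64); no other call changed.

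Quantile normalization of the arrays, the trended and robust prior and leaving out S1 changed no call or direction. The narrow control set gave 0.95 for TLL1 among areas, and the wide set 0.42 for TLL1 and 0.70 for TSHZ2. These sets hold fewer areas. The planned comparisons of layer 4 among areas, and their alternatives, were not run.

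The other probe sets changed most. The second TLL1 probe set gave 0.63 among V1 layers, -0.0155 in 4A, -0.17 for V1 layer 5 against 6, 0.90 and 0.85 in ACG, OFC and M1 (any layer, layer 5 against 3), 0.97 for layer 5 against 3 in areas with layer 4, 0.50 among areas, 0.63 among LGN divisions and -0.0183 between the sexes. The third gave 0.48, -0.16 in 4B, 0.25 for 4Ca and 4Cb against 4B, 0.45 for 4Ca against 4Cb, 0.17, 0.0141 and -0.11 in ACG, OFC and M1, 0.0407 and -0.0241 in areas with layer 4, 0.23 among areas, 0.16 for V1 against other areas, 0.0570 among hippocampal fields, 0.0619 among LGN divisions and -0.0330 for hippocampus. The second TSHZ2 probe set gave 0.91 among V1 layers, -0.18 in 4B, -0.11 for 4Ca and 4Cb against 4B, -0.0545 for 4Ca against 4Cb, 0.93 among areas, 0.95 for layer 5 against 3 and -0.145 between the sexes. The third gave 0.49, 0.0472, -0.0987 and -0.0369 in those V1 comparisons, 0.16, 0.11 and 0.0368 in ACG, OFC and M1, 0.0567 and 0.0477 in areas with layer 4, 0.40 among areas, 0.14 for hippocampus and 0.38 for LGN. The cause was not tested. The third probe sets are dim (means of 3.22 for TLL1 and 3.74 for TSHZ2, against a median of 4.76 over all probe sets). The second TLL1 probe set is dim as well (3.73), and its r with the first was 0.934.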
